A study of Mus musculus with 24 samples.

Results

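Transcripts of 8 amino acid transporter genes (Slc7a1, Slc7a3, Slc7a5, Slc7a11, Slc3a2, Slc1a4, Slc1a5 and Slc38a2) were measured by RNA sequencing of whole mouse spinal cord in 24 libraries. The genes were chosen by symbol, as named carriers that the Gcn2 pathway is known to act on, and not by a threshold on their values. All 8 were found among the 38924 genes listed, and all 8 were among the 17409 genes that passed the filter on low counts. The libraries fall into 6 genotypes of mice aged 8 weeks, all on the mixed background labelled B6J;CASTxB6.129. Mutant mice carried 1 copy of the GarsP278KY allele, a change in the glycyl-tRNA synthetase gene, and were compared with mice with wild-type Gars. The pairs were Gcn2+/+ mutants (4 libraries) and Gcn2+/+ mice with wild-type Gars (4), Gcn2-/- mutants (5) and Gcn2-/- mice with wild-type Gars (3), and Gcn2+/- mutants (4) and Gcn2+/- mice with wild-type Gars (4). The Gcn2+/- genotypes come from the sample labels and are not listed in the series design. The labels do not say that each library came from a separate mouse, so p-values measure the spread between these libraries only. Each library held 19727467 to 32392753 estimated counts, and 13 libraries came from males and 11 from females. The sexes were not balanced between groups, with 1 male of 4 in Gcn2+/+ mutants and 3 of 4 in Gcn2+/+ wild-type Gars libraries, 3 of 5 in Gcn2-/- mutants and 1 of 3 in Gcn2-/- wild-type Gars libraries, and 2 of 4 in Gcn2+/- mutants and 3 of 4 in Gcn2+/- wild-type Gars libraries. Sex was a term of every fit unless it is said to be left out.

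Gcn2, the product of Eif2ak4, is a kinase of the translation factor eIF2 that becomes active when ribosomes stall or tRNA lacks its amino acid. Less eIF2 activity lowers general protein synthesis while the transcription factor ATF4 is translated more, and ATF4 raises genes for amino acid uptake and synthesis. Dominant mutations in the glycyl-tRNA synthetase gene cause a form of Charcot-Marie-Tooth neuropathy, a disease of peripheral axons. Slc3a2 encodes the heavy chain that carries the light chains Slc7a5 (large neutral amino acids, in exchange for glutamine) and Slc7a11 (cystine in, glutamate out) to the cell surface. Slc7a1 and Slc7a3 encode carriers of arginine and lysine that need no heavy chain, and Slc7a3 is known mainly from neurons. Slc1a4 and Slc1a5 encode sodium-dependent exchangers of small neutral amino acids, Slc1a4 with alanine, serine and cysteine as substrates and Slc1a5 with glutamine. Slc38a2 encodes a sodium-coupled carrier of neutral amino acids whose level rises in cells short of amino acids.

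The Gcn2 labels were checked on Eif2ak4. It was at 11.7 to 14.3 CPM (read counts relative to library size, scaled by the trimmed mean of M-values) in Gcn2-/- mutants and averaged 13.6 ± 1.91 CPM in Gcn2-/- wild-type Gars libraries (SD, n = 3). It was at 20.4 to 23.6 CPM in Gcn2+/- mutants and 21.5 to 23.6 CPM in Gcn2+/- wild-type Gars libraries, against 30.7 to 33.1 CPM in Gcn2+/+ mutants and 28.8 to 34.3 CPM in Gcn2+/+ wild-type Gars libraries. The 3 Gcn2 genotypes did not overlap. In GENCODE M21 (GRCm38), Slc7a1 lies at chr5:148327410-148399904, Slc7a3 at chrX:101079210-101086020, Slc7a5 at chr8:121881150-121907694 and Slc7a11 at chr3:49892526-50443614, all on the minus strand. Slc3a2 lies at chr19:8706882-8723369, Slc1a4 at chr11:20302180-20332713 and Slc38a2 at chr15:96687392-96699730, also on the minus strand, and Slc1a5 at chr7:16781340-16798274 on the plus strand. No transporter of the 8 lies on chromosome 2, which holds Eif2ak4, or on chromosome 6, which holds Gars.

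Libraries differed in how much nerve root and meningeal RNA they held. The mean log2 CPM of 10 Schwann cell and nerve root markers (Pmp22, Prx and others) was 6.37 and 7.07 in Gcn2+/+ mutants 2 and 4, 3.11 and 4.0 in mutants 1 and 3, and 2.96 to 3.26 in Gcn2+/+ wild-type Gars libraries. It was 2.98 to 4.74 in Gcn2+/- mutants and 6.20 and 6.74 in Gcn2+/- wild-type Gars libraries 1 and 3, with 3.40 and 3.27 in libraries 2 and 4. In Gcn2-/- libraries it was 2.96 to 3.79 in mutants and 3.03 to 3.19 in wild-type Gars libraries. The summed level of these markers was 895 to 3929 CPM in Gcn2+/+ mutants and 763 to 1278 CPM in Gcn2+/+ wild-type Gars libraries. The sum was thus well above 0 also in libraries with a low mean score. No marker was at 0 in every library. The meningeal markers were highest in the same 4 libraries. Several results are also given without these 4 libraries, and others only with them. Whole spinal cord holds many cell types, and fewer cells of a type and less RNA per cell cannot be told apart.

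Promoter sequences are shown for the genes called below, Slc1a4 and Slc7a1, and for Slc7a11, because ATF4 binds the composite C/EBP-ATF response element. Its core, TGATGNAA with N as any base, was searched on both strands in RefSeq windows (GRCm38.p6) of 250 bases before and 50 bases after each annotated start. Windows were given for 5 of the 8 genes (Slc7a1, Slc7a11, Slc3a2, Slc1a4 and Slc38a2), 6 windows in all. Of 32851 such windows in the table, 1304 (3.97%) held the core at least once and 23 (0.07%) held it at least 2 times. Among the transporters, the Slc7a11 window held 2 matches and the Slc1a4 window 1, and the windows of Slc7a1, Slc3a2 and Slc38a2 held none of these letters. The lines below run from 100 bases before the start to 19 after it on the gene's strand, 5′ to 3′, with matches in capitals. They are Slc1a4 at chr11:20332694-20332813 (minus strand), Slc7a11 at chr3:50443594-50443713 (minus strand) and the upstream start of Slc7a1 at chr5:148399885-148400004 (minus strand).
Slc1a4: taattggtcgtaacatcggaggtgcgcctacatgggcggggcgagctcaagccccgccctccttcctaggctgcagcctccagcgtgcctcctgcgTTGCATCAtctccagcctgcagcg
Slc7a11: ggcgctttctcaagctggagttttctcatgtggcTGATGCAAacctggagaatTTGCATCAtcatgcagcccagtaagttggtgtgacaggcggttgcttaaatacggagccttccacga
Slc7a1: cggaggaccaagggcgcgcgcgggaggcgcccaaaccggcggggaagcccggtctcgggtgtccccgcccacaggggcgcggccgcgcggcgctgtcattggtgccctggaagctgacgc
In Slc1a4 the match is on the opposite strand and its first printed base lies 4 bases before the start, so it spans the start. In Slc7a11 the first match is on the gene's strand with its first base 66 bases before the start, and the second is on the opposite strand with its first printed base 47 bases before the start. A match is a run of letters and says nothing of binding in these cells. The lack of a match covers only the 300 bases searched, and sequence outside them was not searched. The Slc3a2 window was set at a start 9472 bases from the GENCODE gene start. The downstream Slc7a1 window was set at a start 7089 bases from it.

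Levels of different genes were compared per transcript length, in the TPM values (transcript abundance scaled by length and depth) that the authors deposited. Over the 24 libraries Slc38a2 averaged 114 ± 24.2 TPM, the heavy chain Slc3a2 82.3 ± 10.4 and its partner Slc7a5 43.4 ± 6.48 (SD, n = 24). Slc1a4 averaged 36.9 ± 4.58 TPM and Slc7a1 24.8 ± 3.85 TPM. The other light chain, Slc7a11, averaged 9.6 ± 3.05 TPM, Slc7a3 5.91 ± 1.70 TPM and Slc1a5 4.54 ± 2.80 TPM. Within 1 library, each gene in this order was above the next in 20 to 24 of the 24 libraries, with the fewest for Slc7a3 over Slc1a5. Neighbours that overlapped across libraries were Slc38a2 and Slc3a2, Slc7a5 and Slc1a4, Slc1a4 and Slc7a1, Slc7a11 and Slc7a3, and Slc7a3 and Slc1a5. Between Slc3a2 and Slc7a5, and between Slc7a1 and Slc7a11, every library of the higher gene was above every library of the lower one. The heavy chain was thus above the light chain Slc7a5 in TPM in all 24 libraries. The genes also differed in spread. The coefficient of variation of CPM over the 24 libraries was 10.5% for Slc1a4, 10.6% for Slc3a2, 13.4% for both Slc7a1 and Slc7a5, 20.9% for Slc38a2, 26.9% for Slc7a3, 35.9% for Slc7a11 and 56.5% for Slc1a5.

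**Figure D1:**
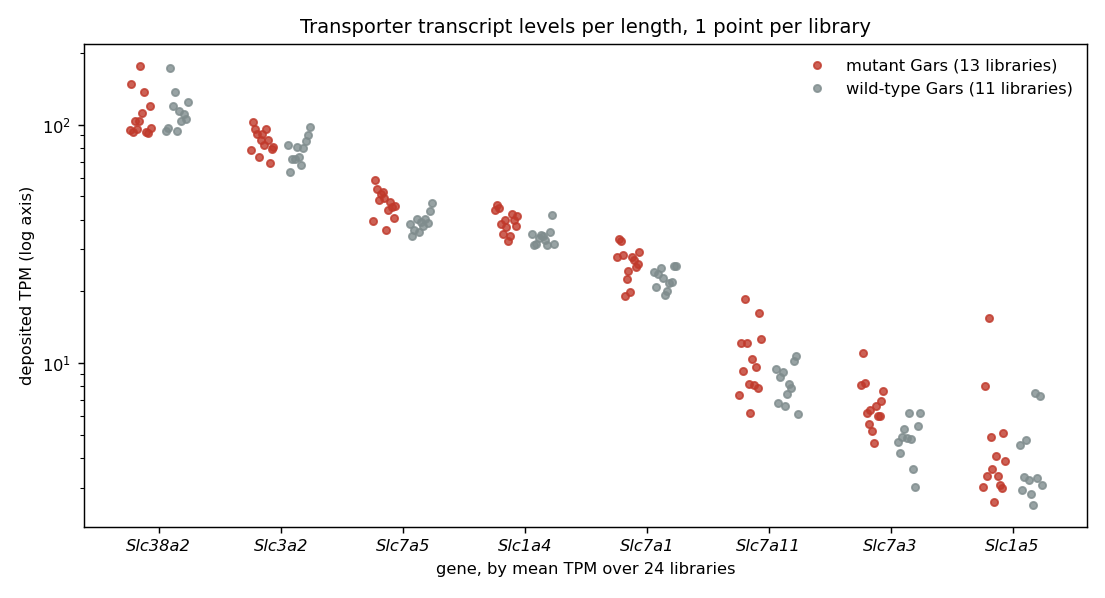
Deposited TPM (log axis) of the 8 transporter genes in 24 libraries, 1 point per library, with 13 mutant Gars libraries in red left of 11 wild-type Gars libraries in grey. Slc38a2 and Slc3a2 lie highest, and Slc1a5 lies lowest with its highest library at 15.5 TPM.

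With Gcn2 intact, 1 of the 8 transporters rose in GarsP278KY/+ spinal cord. Slc1a4, the exchanger of alanine, serine and cysteine, averaged 87.9 ± 5.43 CPM in Gcn2+/+ mutants and 70.6 ± 2.19 CPM in Gcn2+/+ wild-type Gars libraries (SD, n = 4 each). The arginine and lysine carriers Slc7a1 and Slc7a3 were also higher in every mutant library than in every wild-type library, without an adjusted p under 0.05. The remaining 5 overlapped between the groups. Over all genes tested, 0.632% were called in this comparison (110 of 17409) at an adjusted p under 0.05 by edgeR's quasi-likelihood test with Benjamini-Hochberg adjustment, 37 of them (0.213%) higher in mutants. DESeq2, used as an alternative, called 658 genes in it.

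Slc1a4 was at 87.9, 90.8, 92.6 and 80.3 CPM in the 4 Gcn2+/+ mutants, against 72.6, 70.0, 67.7 and 71.9 CPM in the 4 Gcn2+/+ wild-type Gars libraries. The lowest mutant library was above the highest wild-type one. The log2 fold change was 0.35 ± 0.07 (SE), a 1.27-fold rise, with an edgeR adjusted p of 0.016 and a 95% interval of 0.21 to 0.49. Without the 4 libraries highest in Schwann cell markers the change was 0.37 (adjusted p = 0.021). Without mutants 2 and 4 alone it was also 0.37 (adjusted p = 0.0818), and with the marker score as a covariate 0.32 (adjusted p = 0.0958), so that the call ended while the size stayed. Leaving out wild-type library 2 (0.34, adjusted p = 0.0552), wild-type library 3 (0.32, 0.0646) or mutant library 2 (0.33, 0.0519) also ended the call, as did a fit of these 2 groups alone (0.31, adjusted p = 0.383).

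Slc7a1, the main carrier for arginine uptake in many cells, was at 92.5, 107, 110.0 and 95.6 CPM in Gcn2+/+ mutants, against 80.5, 78.5, 85.6 and 81.0 CPM in Gcn2+/+ wild-type Gars libraries. The groups did not overlap. The log2 fold change was 0.29 ± 0.08, with an edgeR adjusted p of 0.0811. With library totals in place of trimmed-mean scaling it was 0.35 (adjusted p = 0.0332), without the sex term 0.31 (0.0392) and with DESeq2 0.29 (0.0174), so its call depended on these settings.

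Slc7a3, the neuronal carrier of the same substrates, was at 9.41, 13.4, 9.50 and 7.40 CPM in Gcn2+/+ mutants, against 5.50, 5.46, 6.22 and 7.12 CPM in Gcn2+/+ wild-type Gars libraries. The groups did not overlap, by a margin of under 1 CPM. The log2 fold change was 0.61 ± 0.19, a 1.52-fold difference, with an edgeR adjusted p of 0.12 (DESeq2 adjusted p = 0.0415). Across all genes, 4.06% had every mutant library above every wild-type library in this comparison, against 3 of the 8 transporters.

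The Slc3a2 complex was less even. Slc3a2 was at 102, 131, 127 and 123 CPM in Gcn2+/+ mutants, against 111, 90.9, 99.5 and 99.4 CPM in Gcn2+/+ wild-type Gars libraries. Slc7a5 was at 67.6, 101, 97.6 and 85.7 CPM in Gcn2+/+ mutants, against 68.0, 65.6, 67.7 and 72.4 CPM in Gcn2+/+ wild-type Gars libraries. For both genes mutants 2, 3 and 4 were above every wild-type library and mutant 1 lay within the wild-type range. The log2 fold changes were 0.22 ± 0.09 for Slc3a2 (edgeR adjusted p = 0.204) and 0.34 ± 0.11 for Slc7a5 (0.142). Without mutant 1, Slc7a5 was at 0.49 (adjusted p = 0.0443). Mutant 1 is also the 1 male among the Gcn2+/+ mutants, and without the sex term and with all libraries Slc7a5 was at 0.36 (edgeR adjusted p = 0.0765).

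Slc7a11 and Slc1a5 depended on single libraries. Slc7a11 was at 29.5, 51.0, 41.3 and 89.4 CPM in Gcn2+/+ mutants, against 42.5, 30.7, 39.9 and 41.3 CPM in Gcn2+/+ wild-type Gars libraries. Slc1a5 was at 2.80, 8.00, 3.79 and 14.04 CPM in Gcn2+/+ mutants, against 4.46, 3.65, 2.64 and 4.75 CPM in Gcn2+/+ wild-type Gars libraries. Both were highest in mutant 4, which was also highest in Schwann cell and meningeal markers, and Slc1a5 was second highest in mutant 2. The log2 fold changes were 0.27 ± 0.32 for Slc7a11 (edgeR adjusted p = 0.713) and 0.81 ± 0.42 for Slc1a5 (0.33). Without the 4 libraries highest in Schwann cell markers, they were -0.20 (adjusted p = 0.827) and -0.26 (0.727), and the direction of both turned.

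Slc38a2 had the widest range among the abundant carriers, and its groups overlapped. It was at 227, 348, 229 and 259 CPM in Gcn2+/+ mutants, against 234, 256, 439.8 and 307 CPM in Gcn2+/+ wild-type Gars libraries. The log2 fold change was -0.26 ± 0.21 (edgeR adjusted p = 0.558). Over the 8 transporters the median log2 change in this comparison was 0.31, with 7 above 0, against a median of 0.01 and 52.7% above 0 over all genes tested. Without the 4 libraries highest in Schwann cell markers the median of the 8 was 0.21 with 5 above 0. Over all genes that fit gave a median of 0.004 with 50.8% above 0. Over 20 alternatives, 1 of them without those 4 libraries, the log2 change was 0.25 to 0.35 for Slc7a1 and 0.46 to 0.72 for Slc7a3. It was 0.20 to 0.49 for Slc7a5 and 0.16 to 0.31 for Slc3a2.

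**Figure D2:**
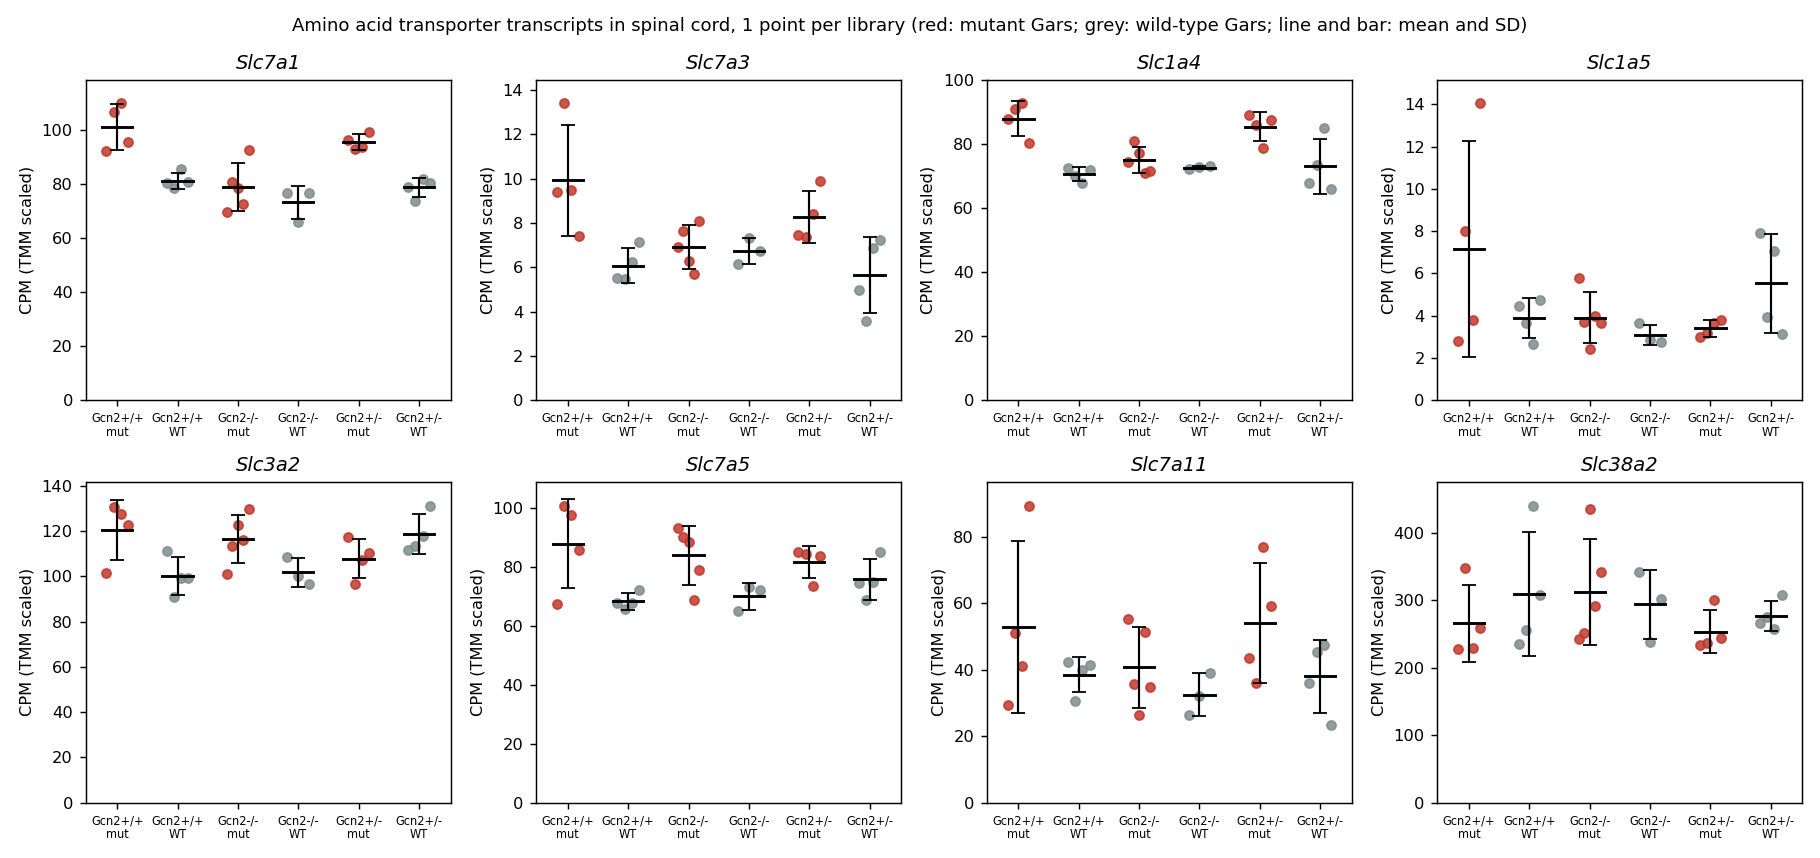
CPM of each transporter gene, 1 point per library, with mutant Gars (mut, red) left of wild-type Gars (WT, grey) for Gcn2+/+, Gcn2-/- and Gcn2+/- mice, and bars for mean and SD (n = 3 to 5). Slc1a4 in Gcn2+/+ mutants sits between 80.3 and 92.6 CPM, above all Gcn2+/+ wild-type Gars libraries, and Slc1a5 has its 2 highest libraries there at 8.00 and 14.04 CPM.

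Without Gcn2, none of the 8 transporters was called between mutants and wild-type Gars libraries, and none separated the groups. Over all genes 0.0115% were called there (2 of 17409 by edgeR, with 757 at an unadjusted p under 0.05 and 26 called by DESeq2), while 2.11% had every mutant library above and 1.71% every mutant library below every wild-type Gars library. Slc1a4 averaged 75.0 ± 4.18 CPM in Gcn2-/- mutants (n = 5) and 72.6 ± 0.471 CPM in Gcn2-/- wild-type Gars libraries (SD, n = 3), a log2 fold change of 0.03 ± 0.07 with a 95% interval of -0.11 to 0.17. Slc7a1 averaged 79.0 ± 8.95 CPM in Gcn2-/- mutants and 73.3 ± 6.18 CPM in Gcn2-/- wild-type Gars libraries, a log2 fold change of 0.12 ± 0.08.

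Library values show how close the groups lay. Slc1a4 was at 74.3, 81.0, 77.2, 71.1 and 71.4 CPM in Gcn2-/- mutants, against 72.1, 72.7 and 73.0 CPM in Gcn2-/- wild-type Gars libraries. Slc7a1 was at 69.8, 80.8, 78.8, 72.7 and 92.9 CPM in Gcn2-/- mutants, against 76.9, 66.2 and 76.9 CPM in Gcn2-/- wild-type Gars libraries. For both genes 2 mutant libraries lay below the highest wild-type Gars library. Slc7a3 averaged 6.92 ± 0.982 CPM in Gcn2-/- mutants and 6.72 ± 0.593 CPM in Gcn2-/- wild-type Gars libraries, a log2 fold change of 0.11 ± 0.19.

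For the heavy chain and its partner Slc7a5 the log2 changes were close to those with Gcn2 present, and edgeR called them in neither comparison. Slc3a2 averaged 117 ± 10.8 CPM in Gcn2-/- mutants and 102 ± 6.23 CPM in Gcn2-/- wild-type Gars libraries, a log2 fold change of 0.22 ± 0.09. Slc7a5 averaged 83.9 ± 9.96 CPM in Gcn2-/- mutants and 70.1 ± 4.50 CPM in Gcn2-/- wild-type Gars libraries, a log2 fold change of 0.28 ± 0.11. The edgeR adjusted p was 0.941 for both, and single libraries overlapped between the groups. The median over the 8 transporters was 0.17 with all 8 above 0, against a median of 0.0028 and 50.9% above 0 over all genes.

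The dependence of the mutant effect on Gcn2 was tested as the difference between the effect in Gcn2-/- and the effect in Gcn2+/+ mice. No transporter was called, where 0.0115% of all genes were (2 by edgeR, with 857 at an unadjusted p under 0.05 and 35 called by DESeq2, no transporter among them). Slc1a4 had a difference of -0.32 ± 0.10 on the log2 scale, with a 95% interval of -0.52 to -0.12, an unadjusted p of 0.00375 and an edgeR adjusted p of 0.843. Slc7a3 had a difference of -0.50 ± 0.27 and Slc7a1 one of -0.17 ± 0.11 (edgeR adjusted p = 0.937 for both). For Slc3a2 the difference was -0.0026 ± 0.12 and for Slc7a5 it was -0.06 ± 0.16, with 95% intervals of -0.26 to 0.26 and -0.39 to 0.28. Over the 8 transporters the median difference was -0.11 with 2 above 0, against a median of 1e-04 and 50% above 0 over all genes. Without the 4 libraries highest in Schwann cell markers the median of the 8 was 0.03 with 5 above 0. Over all genes that fit gave a median of 0.0079 with 51.5% above 0. The differences of Slc1a4, Slc7a3 and Slc7a1 stayed below 0 in all 28 alternatives tried. That of Slc38a2, at 0.36 ± 0.30, stayed above 0 in all 28 (0.12 to 0.60). These alternatives reuse most of the same libraries. A loss of the mutant effect without Gcn2 was not shown for any of the 8 genes after adjustment.

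In Gcn2+/- mice, which keep 1 intact Gcn2 copy, Slc7a1 and Slc7a3 were again higher in every mutant library than in every wild-type Gars library. For Slc7a3 the margin was narrow, with the lowest mutant library at 7.35 CPM and the highest wild-type Gars library at 7.23 CPM. None of the 8 was called by edgeR and 1, Slc1a4, by DESeq2. Over all genes 0.178% were called there (31 of 17409 by edgeR, with 2562 at an unadjusted p under 0.05 and 186 called by DESeq2), and 3.78% had every mutant library above every wild-type Gars library. Slc7a1 was at 96.4, 93.3, 93.7 and 99.5 CPM in Gcn2+/- mutants, against 79.2, 73.9, 82.2 and 80.4 CPM in Gcn2+/- wild-type Gars libraries, a log2 fold change of 0.27 ± 0.08 (edgeR adjusted p = 0.184). Slc7a3 was at 7.47, 7.35, 8.39 and 9.90 CPM in Gcn2+/- mutants, against 4.97, 3.57, 6.86 and 7.23 CPM in Gcn2+/- wild-type Gars libraries, a log2 fold change of 0.50 ± 0.18 (0.244). These libraries are not those of the Gcn2+/+ comparison.

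Slc1a4 was at 88.9, 86.0, 78.9 and 87.6 CPM in Gcn2+/- mutants, against 67.7, 73.5, 85.1 and 65.8 CPM in Gcn2+/- wild-type Gars libraries. The highest wild-type Gars library, number 3, was also the one highest in Schwann cell markers in that group. The log2 fold change was 0.24 ± 0.07 (edgeR adjusted p = 0.163), and 0.31 (0.0279) without that library. With DESeq2 and all libraries it was 0.24 (adjusted p = 0.0417).

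In Gcn2+/- mice Slc3a2 and Slc1a5 had log2 changes below 0, without a call. Slc3a2 averaged 108 ± 8.70 CPM in Gcn2+/- mutants and 119 ± 8.86 CPM in Gcn2+/- wild-type Gars libraries, a log2 fold change of -0.16 ± 0.08 (edgeR adjusted p = 0.392). Slc7a5 averaged 81.7 ± 5.46 CPM in Gcn2+/- mutants and 75.8 ± 6.82 CPM in Gcn2+/- wild-type Gars libraries, a log2 fold change of 0.10 ± 0.11. Slc1a5 was at 2.98, 3.16, 3.68 and 3.80 CPM in Gcn2+/- mutants, against 7.93, 3.95, 7.07 and 3.16 CPM in Gcn2+/- wild-type Gars libraries. The 2 highest of these were libraries 1 and 3, which held the most Schwann cell RNA. Its log2 fold change was -0.75 ± 0.41, and -0.07 without the 4 libraries highest in Schwann cell markers.

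Slc7a11 averaged 54.0 ± 18.1 CPM in Gcn2+/- mutants and 38.1 ± 11.01 CPM in Gcn2+/- wild-type Gars libraries, a log2 fold change of 0.36 ± 0.31. Slc38a2 averaged 254 ± 31.5 CPM in Gcn2+/- mutants and 276 ± 22.2 CPM in Gcn2+/- wild-type Gars libraries, a log2 fold change of -0.14 ± 0.20. Both differences were within the spread of the libraries. Against the effect in Gcn2+/+ mice, the effect in Gcn2+/- mice had no called difference for any of the 8 transporters by edgeR. Over all genes 3.7% were called there (644 of 17409 by edgeR, with 4076 at an unadjusted p under 0.05 and 1718 called by DESeq2). The nearest transporters were Slc3a2 at -0.37 ± 0.12 (edgeR adjusted p = 0.0666) and Slc1a5 at -1.56 ± 0.56 (0.0961), both called by DESeq2 (adjusted p = 0.0308 and 0.0459). Without the 4 libraries highest in Schwann cell markers these values were -0.34 (adjusted p = 0.251) and 0.19 (0.847). Slc3a2 was called by edgeR without Gcn2+/+ wild-type Gars library 1 (-0.43, adjusted p = 0.0247) or Gcn2+/- mutant 1 (-0.42, 0.0285).

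**Figure D3:**
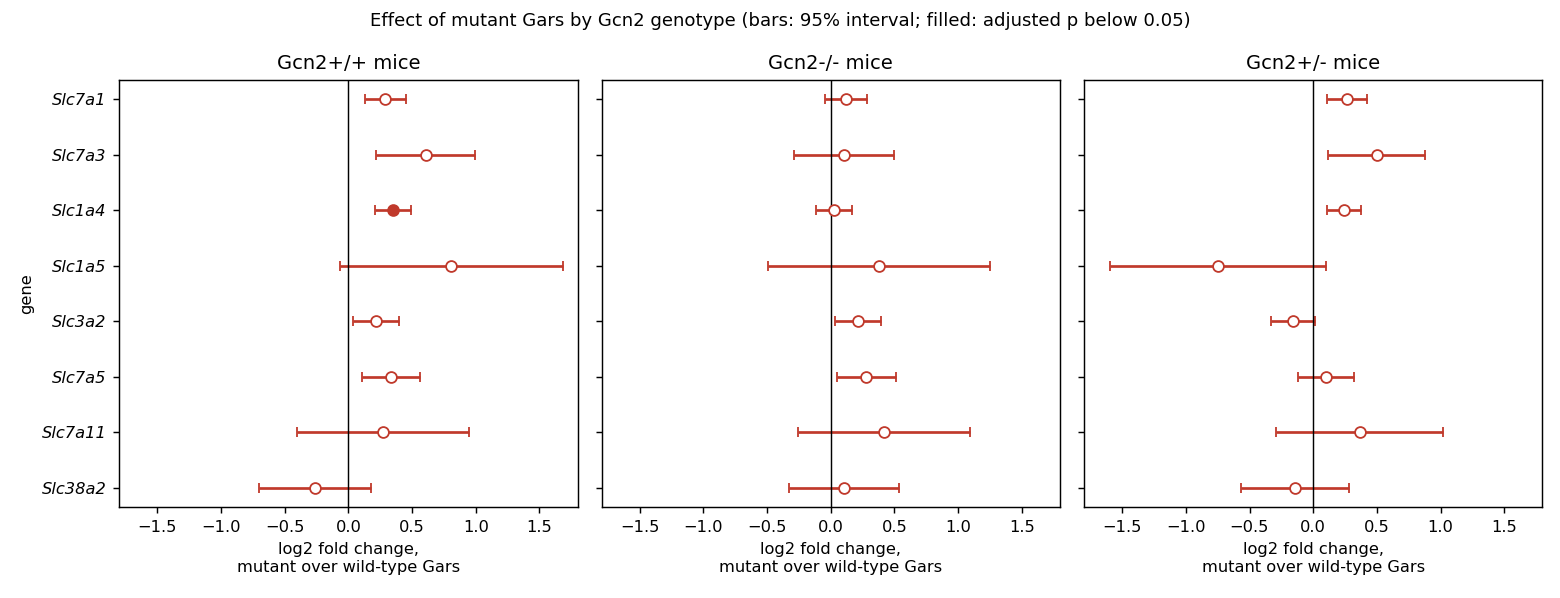
Log2 fold change of mutant over wild-type Gars for each transporter in Gcn2+/+, Gcn2-/- and Gcn2+/- mice, with bars for the 95% interval and a filled point where the edgeR adjusted p was under 0.05. Slc1a4 in Gcn2+/+ mice (0.35) is the only filled point, and its value in Gcn2-/- mice is 0.03.

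Averaged over the 3 Gcn2 genotypes, 2 of the 8 transporters rose with mutant Gars, where 0.448% of all genes were called (78 of 17409), 27 of them (0.155%) higher. This mean uses the same libraries as the 3 comparisons above. Slc1a4 had a mean log2 change of 0.21 ± 0.04 (edgeR adjusted p = 0.0105), which was called in all 34 alternatives tried. Slc7a1 had a mean change of 0.23 ± 0.04 (adjusted p = 0.0167), which was not called without the 4 libraries highest in Schwann cell markers (0.24, adjusted p = 0.0668) or without Gcn2-/- wild-type Gars library 2 (0.20, 0.0659). Slc7a3 was at 0.40 ± 0.11 and Slc7a5 at 0.24 ± 0.06 (adjusted p = 0.123 for both). DESeq2 called these 2 as well (adjusted p = 0.0251 and 0.0259), so that 4 of the 8 were called by that tool. Over all genes that tool called 205 in this comparison, against 78 by edgeR. In edgeR Slc7a5 was called without Gcn2+/+ mutant 1 (0.28, adjusted p = 0.0143) or Gcn2-/- mutant 4 (0.25, 0.0378), and Slc7a3 without Gcn2+/+ mutant 4 (0.44, 0.0463).

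Loss of Gcn2 was also compared at each Gars genotype. In wild-type Gars libraries no transporter was called between Gcn2-/- and Gcn2+/+ libraries, where 0.0287% of all genes were (5 by edgeR, with 640 at an unadjusted p under 0.05 and 38 called by DESeq2). Slc7a1 was the 1 transporter whose groups did not overlap, lower in Gcn2-/- mice at 66.2 to 76.9 CPM, against 78.5 to 85.6 CPM in Gcn2+/+ mice. Its log2 change was -0.17 ± 0.08 (edgeR adjusted p = 1), and 1.94% of all genes had every Gcn2-/- library below every Gcn2+/+ one. The other 7 transporters had log2 changes of -0.38 (Slc7a11) to 0.07 (Slc1a4).

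In mice with mutant Gars, Slc7a1 fell in Gcn2-/- libraries relative to Gcn2+/+ libraries, where 0.494% of all genes were called (86 of 17409), 45 of them (0.258%) lower. It averaged 79.0 ± 8.95 CPM in Gcn2-/- mutants (n = 5) and 101 ± 8.48 CPM in Gcn2+/+ mutants (SD, n = 4). The highest Gcn2-/- library, at 92.9 CPM, was just above the lowest Gcn2+/+ library, at 92.5 CPM. The log2 change was -0.34 ± 0.07 (edgeR adjusted p = 0.0315). It stayed at -0.34 without the 4 libraries highest in Schwann cell markers, but the call ended (adjusted p = 0.212), and without Gcn2+/+ mutants 2 and 4 it was -0.35 (adjusted p = 0.168). The call also ended without any of 5 single libraries, namely Gcn2+/+ mutants 2 (-0.32, adjusted p = 0.0898) and 3 (-0.31, 0.0995) and Gcn2-/- mutants 1 (-0.31, 0.0649), 3 (-0.34, 0.0514) and 4 (-0.30, 0.12).

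The other transporters in mutants without Gcn2 ranged widely. Slc1a4 averaged 75.0 ± 4.18 CPM in Gcn2-/- mutants and 87.9 ± 5.43 CPM in Gcn2+/+ mutants, a log2 change of -0.25 ± 0.06 (edgeR adjusted p = 0.0862, DESeq2 adjusted p = 0.0114). Slc7a3 averaged 6.92 ± 0.982 CPM in Gcn2-/- mutants and 9.92 ± 2.51 CPM in Gcn2+/+ mutants, a log2 change of -0.44 ± 0.17 (0.37). Slc3a2 at -0.02 ± 0.08 and Slc7a5 at -0.04 ± 0.10 lay near 0, Slc1a5 was at -0.80 ± 0.39, Slc7a11 at -0.24 ± 0.30 and Slc38a2 at 0.26 ± 0.20. Without the 4 libraries highest in Schwann cell markers Slc1a5 was at 0.27 (adjusted p = 0.905) and Slc7a11 at 0.25 (0.924), whereas Slc1a4 was at -0.27 (0.12) and Slc7a3 at -0.42 (0.677). Of the 8, 7 were below 0, with a median of -0.25, against a median of -0.0021 over all genes, of which 49.3% were above 0. Without the 4 libraries highest in Schwann cell markers the median of the 8 was 0.04 with 5 above 0. Over all genes that fit gave a median of 0.0079 with 52.1% above 0.

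Averaged over both Gars genotypes, Slc7a1 fell by 0.26 on the log2 scale in Gcn2-/- mice (SE 0.05, edgeR adjusted p = 0.0225), where 0.62% of all genes were called (108 of 17409), 47 of them (0.27%) lower. The call ended without any of 4 single libraries, namely Gcn2+/+ mutants 2 (-0.24, adjusted p = 0.0513) and 3 (-0.23, 0.0535) and Gcn2-/- wild-type Gars libraries 2 (-0.21, 0.123) and 3 (-0.27, 0.0537). It also ended without the 4 libraries highest in Schwann cell markers (-0.26, 0.118). The other 7 transporters were not called, so Slc7a1 was the 1 of the 8 with a called difference by Gcn2 genotype in edgeR. Between Gcn2+/- and Gcn2+/+ mice edgeR called no gene (0.0%) with either Gars genotype, Eif2ak4 included. At an unadjusted p under 0.05 there were 3001 genes with wild-type Gars and 1900 with mutant Gars, and DESeq2 called 459 and 16, no transporter of the 8 among them. Slc3a2 was higher in every Gcn2+/- wild-type Gars library than in every Gcn2+/+ wild-type Gars library, at 111.5 to 131 CPM in Gcn2+/- mice, against 90.9 to 111.4 CPM in Gcn2+/+ mice. Its log2 change was 0.24 ± 0.08 (edgeR adjusted p = 0.163), and 3.46% of all genes separated these groups in that direction. Over 19 alternatives, 1 of them without the 4 libraries highest in Schwann cell markers, the Slc3a2 change was 0.19 to 0.30.

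Library titles begin with numbers whose meaning is not given. They were split here into a low-number set (below 25102) and a high-number set (25102 and above), a cut that the labels do not give. Slc1a4 was higher in Gcn2+/+ mutants within both sets. On the log2 scale of the means it was higher by 0.41 in the low-number set (2 mutants, 1 wild-type Gars) and 0.26 in the high-number set (2 mutants, 3 wild-type Gars). Slc7a1 was higher by 0.24 and 0.34 in the same sets, and Slc7a3 by 0.57 and 0.69. Slc7a11 was at -0.19 in the low-number set and 0.83 in the high-number set, and Slc38a2 at -0.95 and 0.18, so these 2 genes had no common direction. In Gcn2-/- mice the wild-type Gars libraries all belong to the low-number set, in which Slc1a4 was at 0.03 and Slc7a1 at 0.23 (2 mutants, 3 wild-type Gars).

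Markers of other cells moved in the same comparisons. Motor neuron markers fell in Gcn2+/+ mutants for 7 of 9 genes tested, with summed levels of 742 to 962 CPM in mutants, against 1264 to 1368 CPM in wild-type Gars libraries. In Gcn2-/- mice 1 of 9 fell (1156 to 1271 CPM in mutants, against 1182 to 1293 CPM in wild-type Gars libraries), and in Gcn2+/- mice 6 of 9 (936 to 1017 CPM in mutants, against 1257 to 1446 CPM in wild-type Gars libraries). Between Gcn2-/- and Gcn2+/+ mutants, where Slc7a1 fell, 5 of the 9 rose in Gcn2-/- mutants. Their part in the values of Slc1a4, Slc7a1 and Slc7a3 was not tested. None of the 10 astrocyte markers was called in these 3 comparisons, and the astrocyte list had a median log2 change of -0.06 with Gcn2+/+. Of the 10 blood-brain barrier endothelium markers, also none was called, with a median of -0.10 with Gcn2+/+. Of 10 microglia markers none was called either, and with Gcn2-/- all 10 were above 0 with a median of 0.35 (summed levels of 317 to 361 CPM in mutants, against 273 to 291 CPM in wild-type Gars libraries). Of 9 marrow markers tested none was called, with medians of 1.64 with Gcn2+/+ (9 above 0), -1.15 with Gcn2-/- (2 above 0) and 0.78 with Gcn2+/- (6 above 0). Their summed levels were 99.6 to 245 CPM in Gcn2+/+ mutants, against 116 to 208 CPM in Gcn2+/+ wild-type Gars libraries, and 117 to 236 CPM in Gcn2-/- mutants, against 82.7 to 178 CPM in Gcn2-/- wild-type Gars libraries. Oligodendrocyte and general neuron markers had no call and medians of -0.09 to 0.10. The part of these markers in the transporter values was not tested.

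**Figure D4:**
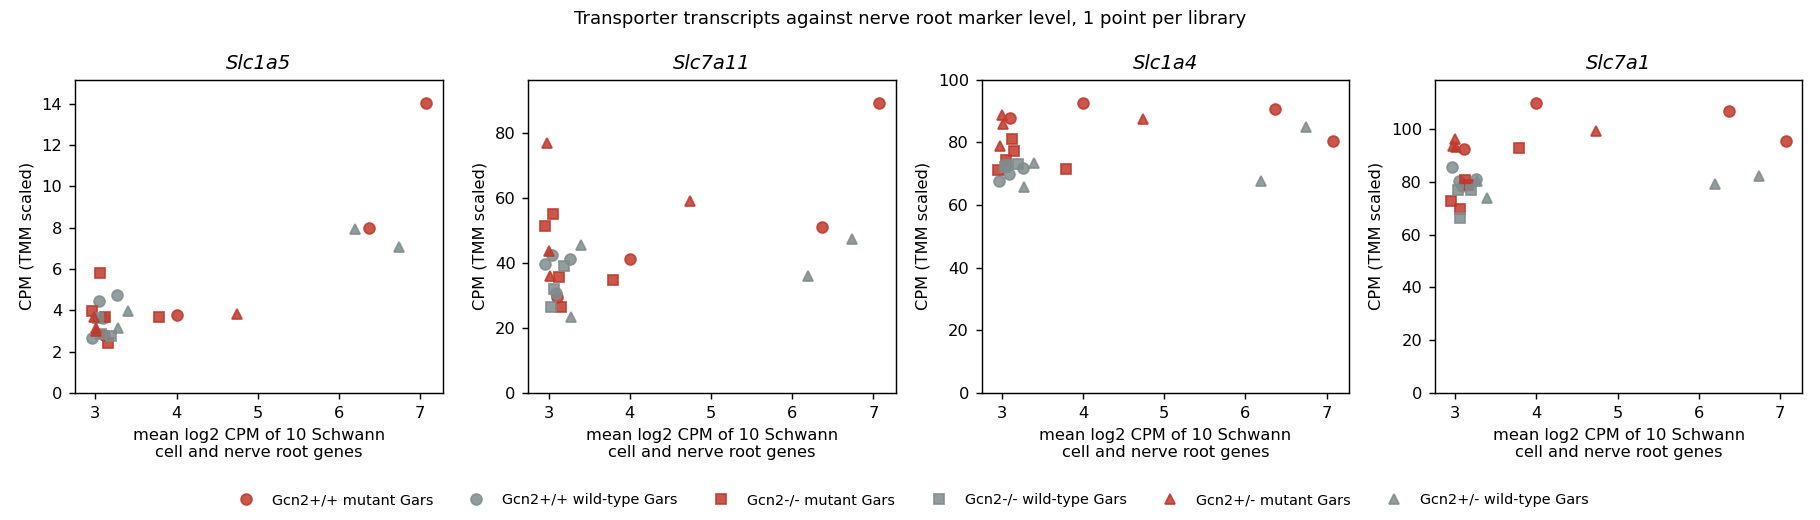
CPM of Slc1a5, Slc7a11, Slc1a4 and Slc7a1 against the mean log2 CPM of 10 Schwann cell and nerve root genes, 1 point per library, with red for mutant and grey for wild-type Gars and a marker shape for each Gcn2 genotype. The 4 libraries above 6 on the horizontal axis hold the 4 highest Slc1a5 values (7.07 to 14.04 CPM), whereas Slc1a4 and Slc7a1 in them lie within the range of the other libraries.

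Other amino acid transporters were read from a list of 48 genes, of which 38 were tested. With Gcn2 present 0 of the 38 rose and 1 fell in mutants. That 1 was Slc7a14, a relative of the cationic carriers, at 189.8 ± 6.64 CPM in Gcn2+/+ mutants and 253 ± 10.96 CPM in Gcn2+/+ wild-type Gars libraries (SD, n = 4 each), a log2 change of -0.43 ± 0.05 (edgeR adjusted p = 2.04e-05), and -0.40 (0.00138) without the 4 libraries highest in Schwann cell markers. Slc7a4, of the same subfamily, was at 0.33 ± 0.09 (0.101), Slc7a7, another light chain of Slc3a2, at 0.72 ± 0.21 (0.108) and Slc1a2, the main glutamate carrier of astrocytes, at -0.21 ± 0.06 (0.112). In Gcn2-/- and in Gcn2+/- mice 0 of the 38 were called, with Slc7a14 at -0.09 ± 0.05 and -0.11 ± 0.04. The median log2 change of the 38 was 0.02 with Gcn2+/+, 0.0045 with Gcn2-/- and -0.03 with Gcn2+/-.

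Slc7a14 thus had the opposite sign to Slc1a4 and Slc7a1 in Gcn2+/+ mice. In mutants it rose in Gcn2-/- relative to Gcn2+/+ libraries by 0.26 ± 0.04 on the log2 scale (edgeR adjusted p = 0.00354), averaging 225 ± 8.14 CPM in Gcn2-/- mutants and 189.8 ± 6.64 CPM in Gcn2+/+ mutants. The difference of its mutant effects between Gcn2-/- and Gcn2+/+ was 0.34 ± 0.07 (0.108), and between Gcn2+/- and Gcn2+/+ it was 0.33 ± 0.06 (0.04). In the mean over the 3 Gcn2 genotypes Slc7a14 fell by 0.21 (SE 0.03, adjusted p = 0.00011) and Slc7a4 rose by 0.26 ± 0.05 (0.028). In the difference between Gcn2+/- and Gcn2+/+ effects, Slc1a2 (0.31 ± 0.08, adjusted p = 0.0491) and Slc36a2, a proton-coupled carrier of small amino acids (-7.80 ± 1.88, 0.0402), were also called. Slc36a2 ranged from 0.497 to 18.4 CPM within Gcn2+/+ mutants and from 0.0952 to 16.9 CPM within Gcn2+/- wild-type Gars libraries, the 2 groups that hold the 4 libraries highest in Schwann cell markers. Without those 4 libraries Slc36a2 was at -0.46 in that difference (adjusted p = 0.905), Slc1a2 at 0.19 (0.293) and Slc7a14 at 0.25 (0.17), and none was called. In the same fit Slc7a14 was at 0.24 (adjusted p = 0.057) between Gcn2-/- and Gcn2+/+ mutants. In the mean over the 3 Gcn2 genotypes it remained called at -0.22 (0.00079), whereas Slc7a4 was at 0.22 (0.275).

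Across the 24 libraries, after the mean of each sex was removed, Slc1a4, Slc7a3 and Slc7a1 varied together more than any other of the transporters. The Pearson correlation of log2 CPM was 0.737 for Slc1a4 and Slc7a3, 0.733 for Slc1a4 and Slc7a1 and 0.675 for Slc7a1 and Slc7a3, and the next pair, Slc1a5 and Slc7a11, had 0.589. These values describe libraries that share genotype, depth and tissue content. Among 13758 other genes, those most like Slc1a4 were Anapc5 (0.813), Slc14a1 (0.79) and Sesn2 (0.788), a stress-induced inhibitor of mTORC1. Those most like Slc7a1 were Chac1 (0.783), an ATF4 target that degrades glutathione, Wars (0.773), the tryptophanyl-tRNA synthetase, and P2rx3 (0.765). Chac1 and P2rx3 lie on chromosome 2, as does Eif2ak4. So do Col5a1 and Hspa5, named below as neighbours of Slc1a5 and Slc38a2. Those most like Slc7a3 were Plekhn1 (0.812), Zmynd11 (0.774) and Vwa5b1 (0.76).

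The other transporters had other neighbours. Slc1a5 was most like Gstm2 (0.925), Col5a1 (0.912), a fibrillar collagen gene, and Hspg2 (0.892), the basement membrane proteoglycan perlecan. Slc7a11 was most like Lrba (0.799), Kl (0.786) and Hacd4 (0.785). Slc3a2 was most like Dyrk1b (0.898), Crtc2 (0.892) and Prr12 (0.883). Slc38a2 was most like Fosb (0.879), an immediate early gene, Hspa5 (0.873), an endoplasmic reticulum chaperone, and Fosl2 (0.867). For Slc7a5, Dao (0.765) and Tmem52 (0.736) were among the most alike.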

How the data were processed

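Poly(A) RNA of spinal cord was sequenced as 75 bp paired ends with a strand-marking kit, per the labels' protocols. The authors deposited RSEM expected counts and TPM per gene, and RSEM 1.2.12 and Bowtie2 2.2.0 are named in the submitters' processing notes; build and annotation were not given in the sources used here. Expected counts were rounded to whole numbers. Those of Slc7a11 and Slc3a2 were not whole in any library, so part of their reads was shared out with other genes by the authors' estimate. Gene names came from GENCODE M21, which matched 37607 of the 38924 genes; the rest held 0.261% of counts. CPM and tests used edgeR 4.0.16 in R 4.3.3 with TMM factors, filterByExpr, 1 fit of the 6 genotypes and sex, the robust quasi-likelihood test and Benjamini-Hochberg adjustment over 17409 genes; calls needed an adjusted p under 0.05. DESeq2 1.42.0 was an alternative. The 11 comparisons share libraries. Marker scores were means of log2(CPM + 0.5). The transporters named beside the 8 were up to 4 per comparison with the smallest p, and the 3 genes most like each transporter had a mean CPM of at least 1 and no provisional symbol. For Slc7a5 1 of these is not reported here. The genes, lists and tests were chosen with earlier results of these data known. The scripts were checked on simulated counts, and no pair of libraries of the same genotype agreed within sampling noise. Pairs of different genotypes were not checked in this way. Depth limits Slc1a5 (62 to 370 counts per library) and Slc7a3 (75 to 407) most.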

Additional observations from a re-analysis of the deposited data

Results flagged for a closer look

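Among 40 combinations of a transporter and a genotype with at least 4 libraries, 2 held a library far from the rest of its group, and chance alone marks about 1 in 20 such groups. Both were Gcn2+/- mutant library 3. Slc7a5 was at 73.6 CPM there, against 83.6 to 85.2 CPM in the other 3 libraries of that genotype. Slc38a2 was at 300.3 CPM there, against 234 to 244 CPM in the other 3. This library had a Schwann cell marker score of 2.98, close to the 3.00 and 3.01 of Gcn2+/- mutants 1 and 2.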

How the results depend on the processing

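In 2032 values of single transporters under other settings, no called value changed sign, 27 lost and 17 gained a call, and 136 values that were never called changed sign. For the mutant effect with Gcn2+/+, 1 transporter was called, against 2 with library totals, 3 with DESeq2, 2 without the sex term, and 0 with its own groups alone, with the Schwann cell score as a covariate or without Gcn2+/+ mutants 2 and 4. Leaving out 1 library gave 0 to 2. With Gcn2+/- it was 0, against 1 with DESeq2 and 0 to 1 leaving out 1 library. The mean over Gcn2 genotypes had 2, against 4 with DESeq2, 1 without the 4 libraries highest in Schwann cell markers (an alternative chosen after seeing the data) and 1 to 3 leaving out 1 library. The difference of Gcn2+/- and Gcn2+/+ effects had 0, against 2 with DESeq2 and 0 to 1 leaving out 1 library. For Gcn2-/- against Gcn2+/+ with mutant Gars 1 was called, against 2 with DESeq2, and for the mean over both Gars genotypes 1. Both counts were 0 with their own groups alone, with the 4 genotypes of the series design, with the Schwann cell score, without Gcn2+/+ mutants 2 and 4 and without those 4 libraries, and 0 to 1 leaving out 1 library. The 5 other comparisons had 0 called in every alternative run. Fewer libraries were fitted in several of these; the causes were otherwise not tested. With the title number as a replicate block the counts were 1, 0 and 0 for the mutant effect with Gcn2+/+, Gcn2-/- and Gcn2+/-, and 2 for its mean, with no count moved. Libraries with the same title number in different groups had a median correlation of 0.2 (-0.136 to 0.465 over 32 pairs), against -0.03 for libraries with different numbers in different groups (207 pairs). Libraries with the same number were thus more alike at the median. The numbers were not used in the main fit, and whether libraries with the same number share a source was not tested. With 3 to 5 libraries in a group, an uncalled value does not show that a transporter was unchanged.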
